A study of Mus musculus with 35 samples.

Results

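The 36 genes described here carry glucose carbon through the cell: 2 glucose transporters, 3 enzymes of hexose entry, 3 phosphofructokinases, 4 enzymes that make or remove fructose-2,6-bisphosphate, 8 enzymes of lower glycolysis, 4 genes of lactate handling, 8 genes of pyruvate entry and oxidation, and 4 enzymes of glycogen. They were taken as a fixed list of gene names; the rule uses no measured value, but the list was drawn up with earlier results of these data known. All 36 were found among the 49568 gene names of the count tables, and all 36 passed the low-count filter that left 18063 genes for testing.

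RNA with polyA tails from the hypothalamus of male mice, of a strain given as B6/J, was sequenced as read pairs of 150 bases in 35 libraries, all collected at Zeitgeber time 16, that is, 16 h after lights-on. The age of the mice is not given in the sources used here. Control mice had free access to food (n = 10) or were fasted for 16 h from lights-on (n = 10). PER2-S662D mice, which carry an aspartate in place of a phosphorylated serine of the clock protein PER2, were likewise fed (n = 5) or fasted (n = 5). A further fasted group carried the label Per2 knockout (n = 5), with no fed group beside it. The labels do not say how either allele was made or whether it is a transgene. The labels do not say whether each library came from a separate mouse, so the p-values measure the spread between these libraries, which may in part be technical.

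Neurons and glia live almost wholly on glucose. Glucose enters through facilitated transporters, is trapped by hexokinase, committed at phosphofructokinase and split and oxidised to pyruvate by lower glycolysis. Pyruvate either becomes lactate, which is exported through monocarboxylate transporters, or enters mitochondria through the carrier of MPC1 and MPC2 and is oxidised by the pyruvate dehydrogenase complex. Pyruvate dehydrogenase kinases switch that complex off, and its phosphatases, of which Pdp1 encodes a catalytic subunit, switch it on again. In fasted liver, muscle and heart, more kinase spares glucose for the brain. Glycogen in the brain is stored mostly in astrocytes, where it is built by glycogen synthase (Gys1) and branching enzyme (Gbe1) and broken down by glycogen phosphorylase, in its brain form Pygb and its muscle form Pygm.

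Depth was 17959586 to 37027342 assigned counts per library, with the highest totals among S662D mice. Per2 itself stood at 28.2 ± 1.87 CPM (SD, n = 10) in fed controls, 29 ± 2.45 (n = 10) in fasted controls, 18.7 ± 1.98 (n = 5) in fed S662D mice and 19.9 ± 2.38 (n = 5) in fasted S662D mice, where CPM is the usual unit of counts relative to the scaled library total. In the libraries labelled Per2 knockout it was 30.3 ± 2 CPM (n = 5), not lower than in controls. Counts per gene cannot tell whether PER2 function is lost in that group. It is therefore called by its label throughout, and no direction drawn from it is read as an effect of losing Per2. All 10 marker genes of the hypothalamus were detected, with a summed level of 537 to 769 CPM. Markers of choroid plexus summed to 18.2 to 1533 CPM, so the libraries held that neighbouring tissue in unequal amounts. The file headers place controls 1 to 5, controls 6 to 10, the labelled knockout and the S662D libraries in separate ranges of library numbers, so the effects of genotype and of library range cannot be told apart. Replicates 2, 3 and 4 of each S662D group also carry an additional digit in the library number, whose meaning the headers do not state.

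Lower glycolysis made up most of the abundant members. CPM per kilobase of exon, the scale on which genes can be compared with each other, were highest for Gapdh (511 ± 26.4, SD over 35 libraries), which oxidises glyceraldehyde phosphate. Aldoa, the aldolase that splits the hexose, followed at 389 ± 21.4, then Ldhb at 334 ± 24.6, Pgam1 at 297 ± 12.3 and Pkm, pyruvate kinase, at 283 ± 19.1. Several neighbours in this order did not differ beyond their spread: Pgam1 and Pkm overlapped, as did Pgk1 (203 ± 13.2) and triosephosphate isomerase Tpi1 (199 ± 13.3). The lowest members were Hk2 at 0.72 ± 0.0958, Slc16a3, the lactate exporter MCT4, at 0.631 ± 0.115, and Pfkfb1 at 0.179 ± 0.057. For 11 members the level is uncertain, because 10% or more of their exonic sequence is shared with an overlapping gene, or 10% or more of their 50-base words recur in other genes' transcripts, and the counting kept every alignment of a read: Gpi1, Pfkfb2, Gapdh, Pgk1, Pgam1, Eno1, Pkm, Ldhb, Mpc1, Pdha1 and Pdhb.

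**Figure D1:**
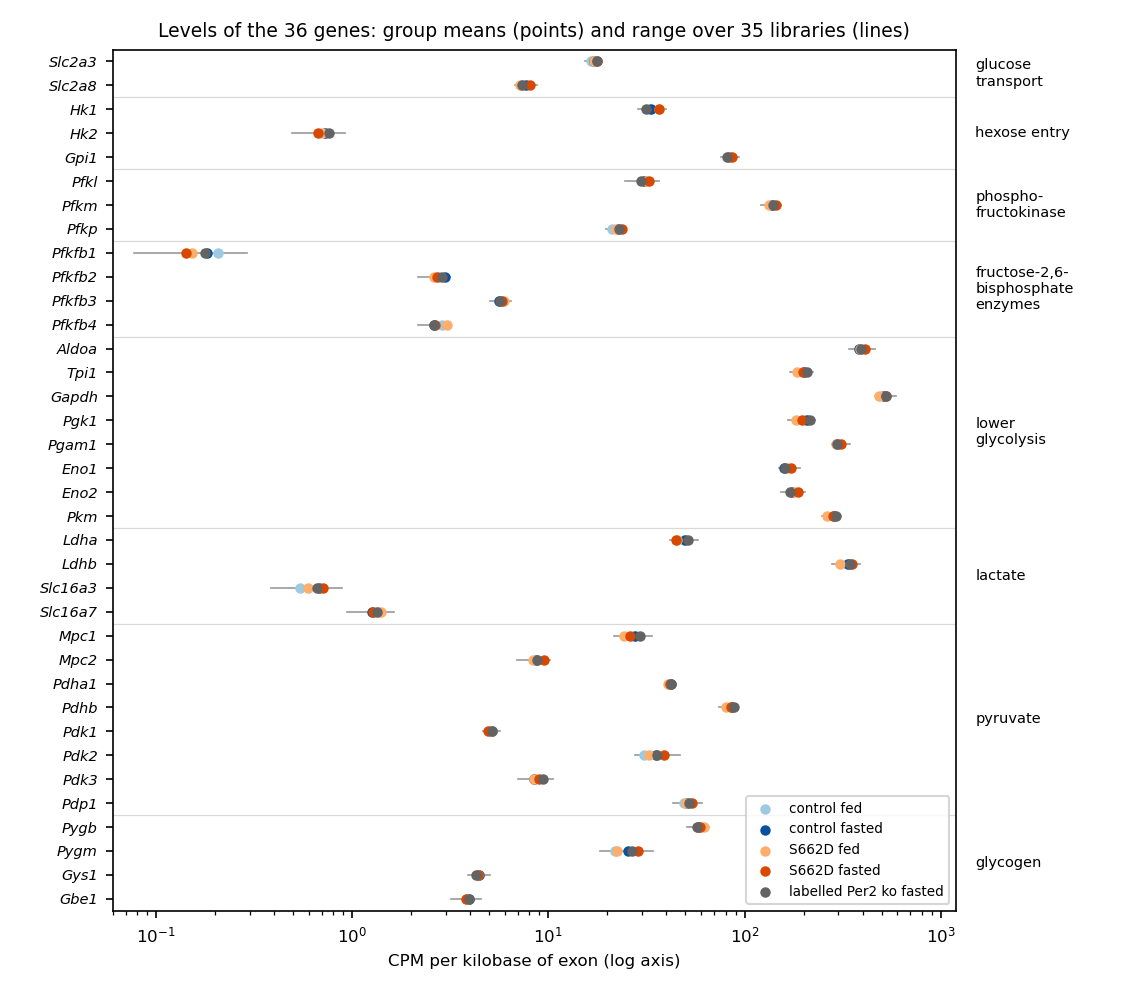
Level of each of the 36 genes in CPM per kilobase of exon on a log axis, grouped by role. Points are the means of the 5 groups and lines span the lowest to the highest of the 35 libraries. The genes run from Pfkfb1 at 0.179 to Gapdh at 511, and for most genes the group means lie on top of each other.

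Isozymes are compared by shares of their family's summed level per kilobase over all 35 libraries. The shares depend on the exon length of each gene, such as 2957 bases for Pfkm and 9395 for Pfkp. Hk1, which docks on mitochondria, held 97.9% ± 0.319 (SD) of hexokinase against 2.09% ± 0.319 for Hk2. Pfkm held 72.2% ± 0.688 of phosphofructokinase, with Pfkl at 16.2% ± 0.786 and Pfkp at 11.7% ± 0.456. Ldhb, the heart type of lactate dehydrogenase, held 87.3% ± 0.943 against 12.7% ± 0.943 for the muscle type Ldha. The ubiquitous enolase Eno1 and the neuronal Eno2 were nearly even, at 48.1% ± 1.13 and 51.9% ± 1.13. Among the bifunctional enzymes that set fructose-2,6-bisphosphate, the activator of phosphofructokinase, Pfkfb3 held 49.8% ± 2.2, Pfkfb2 24.6% ± 2.02, Pfkfb4 24.1% ± 2.06 and Pfkfb1 1.57% ± 0.499. Pygb held 68.4% ± 2.84 of glycogen phosphorylase and Pygm 28.4% ± 2.9. Pdk2 held 65.1% ± 2.46 of the pyruvate dehydrogenase kinases, ahead of Pdk3 at 16.5% ± 1.79 and Pdk1 at 9.75% ± 1.12.

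The comparison of fasted with fed controls asks what a fast of 16 h does to these transcripts. Of the 36 members, 2 rose, Pdk2 and Pygm, and 0 fell; a gene is called at an adjusted p below 0.05 (edgeR quasi-likelihood test, Benjamini-Hochberg over the 18063 genes). That is 5.56% of the members, beside 3.88% of all genes called (2.20% higher and 1.68% lower). In S662D mice Pdk2 and Pygm were again the 2 that rose and 0 fell, beside 2.64% of all genes called (1.80% higher and 0.830% lower). In controls Pfkp was also called by DESeq2, in a fit of the compared groups alone and without fed control replicate 1; controls 1 to 5 alone called Pdk2 and, lower, Mpc2 (-0.24), which gave 0.17 in controls 6 to 10 (adjusted p = 0.179). The share of counts from mitochondrial genes was 6.24 to 6.82% in fed and 6.85 to 8.27% in fasted S662D libraries, which did not overlap, and 6.69 to 7.37% and 6.81 to 8.7% in controls; its part in the fasting changes was not tested. The members' median log2 fold change was 0.02 in controls and 0.07 in S662D mice, against 0.00 over all genes in both. Bulk tissue cannot tell fewer cells of a type from less RNA per cell.

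Pdk2 (chromosome 11, 95026258 to 95041354, minus strand, GRCm38) encodes a pyruvate dehydrogenase kinase. Fed controls ranged from 87.9 to 106 CPM with a median of 97.1, and fasted controls from 101 to 121 with a median of 111. Fed S662D libraries held 98.1, 109, 106, 107 and 97.9 CPM, and fasted ones 102, 149, 132, 120 and 114. Fasted libraries were higher in both genotypes, but the groups overlapped in each: 4 of 5 fasted S662D libraries lay above every fed one. The log2 fold change was 0.20 (SE 0.05, adjusted p = 0.00551, edgeR) in controls and 0.25 (SE 0.07, adjusted p = 0.0271, edgeR) in S662D mice. In the libraries labelled Per2 knockout, all fasted, Pdk2 stood at 118, 103, 112, 114 and 118 CPM, within the range of the fasted controls.

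The call of Pdk2 in controls held in 28 of 29 alternative analyses, with a log2 fold change of 0.17 to 0.23, and was lost in controls 6 to 10 alone (0.17, adjusted p = 0.21). In S662D mice the call of Pdk2 held in 12 of 19. The 3 fasted libraries with the additional digit averaged 134 CPM and the 2 without it 108, and by set the log2 fold change was 0.32 with the digit (adjusted p = 0.0063) and 0.14 without it (adjusted p = 0.999), where each feeding state of the smaller set has 2 libraries. Leaving out fasted S662D replicate 2, the highest library, gave 0.17 (adjusted p = 0.209), and the call was also lost without fasted replicate 3, without fed replicates 1 or 5, with no scaling beyond library size (0.21, adjusted p = 0.0599) and in a fit of the compared groups alone (0.25, adjusted p = 0.196).

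Pygm (chromosome 19, 6384399 to 6398459, plus strand) encodes the muscle form of glycogen phosphorylase, which astrocytes also make. Its level was 59 to 76 CPM in fed controls, with a median of 70.9, and 75.8 to 93 in fasted controls, with a median of 80.5. Fed S662D libraries held 78.9, 64.7, 74, 71.9 and 70.5 CPM and fasted ones 75.8, 110, 96, 85.2 and 91.6. In controls the groups overlapped only between 75.8 and 76 CPM, and in S662D mice 4 of 5 fasted libraries lay above every fed one. The log2 fold change was 0.22 (SE 0.05, adjusted p = 0.00369, edgeR), or 16.6% more, in controls and 0.35 (SE 0.07, adjusted p = 0.00139, edgeR), or 27.5% more, in S662D mice. The libraries labelled Per2 knockout held 81.7, 81.3, 87.2, 90.6 and 89.5 CPM of Pygm, all above the highest fed control.

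The call of Pygm in controls held in 28 of 29 alternatives and was lost in controls 1 to 5 alone, where the log2 fold change was 0.15 (adjusted p = 0.1677) against 0.30 in controls 6 to 10. In S662D mice the call of Pygm held in 17 of 19 alternatives. It was 0.47 in libraries with the additional digit and 0.17 without it (adjusted p = 0.999), and the fit with a replicate block gave 0.34 (adjusted p = 0.1228). Markers of skeletal muscle, a tissue rich in Pygm, summed to 2.85 to 5.31 CPM over all libraries, with 0 of the 2 testable markers called in either fasting comparison, and Ckm, muscle creatine kinase, at 0 to 0.313 CPM. Markers of astrocytes summed to 1013 to 1094 CPM in fed and 1004 to 1100 CPM in fasted controls, and 2 of 5 were called there, Aldh1l1 higher and Aqp4 lower. In S662D mice Aldh1l1 was called higher as well, with sums of 1029 to 1117 CPM fed and 1028 to 1161 CPM fasted. Of 5 microglial markers, Cx3cr1 and P2ry12 were called lower in fasted controls and Cx3cr1 in fasted S662D mice. Of the 10 hypothalamic markers, Agrp and Npy were called higher in fasted controls, and 0 were called in S662D mice. Of 5 oligodendrocyte markers only Mobp was called, higher in both genotypes. The median log2 change of that list was -0.04 in controls and 0.11 in S662D mice. Of 5 endothelial markers, only Cldn5 was called in controls, lower, and only Ly6c1 in S662D mice, higher. Their part in the rise of Pygm or Pdk2 was not tested.

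**Figure D2:**
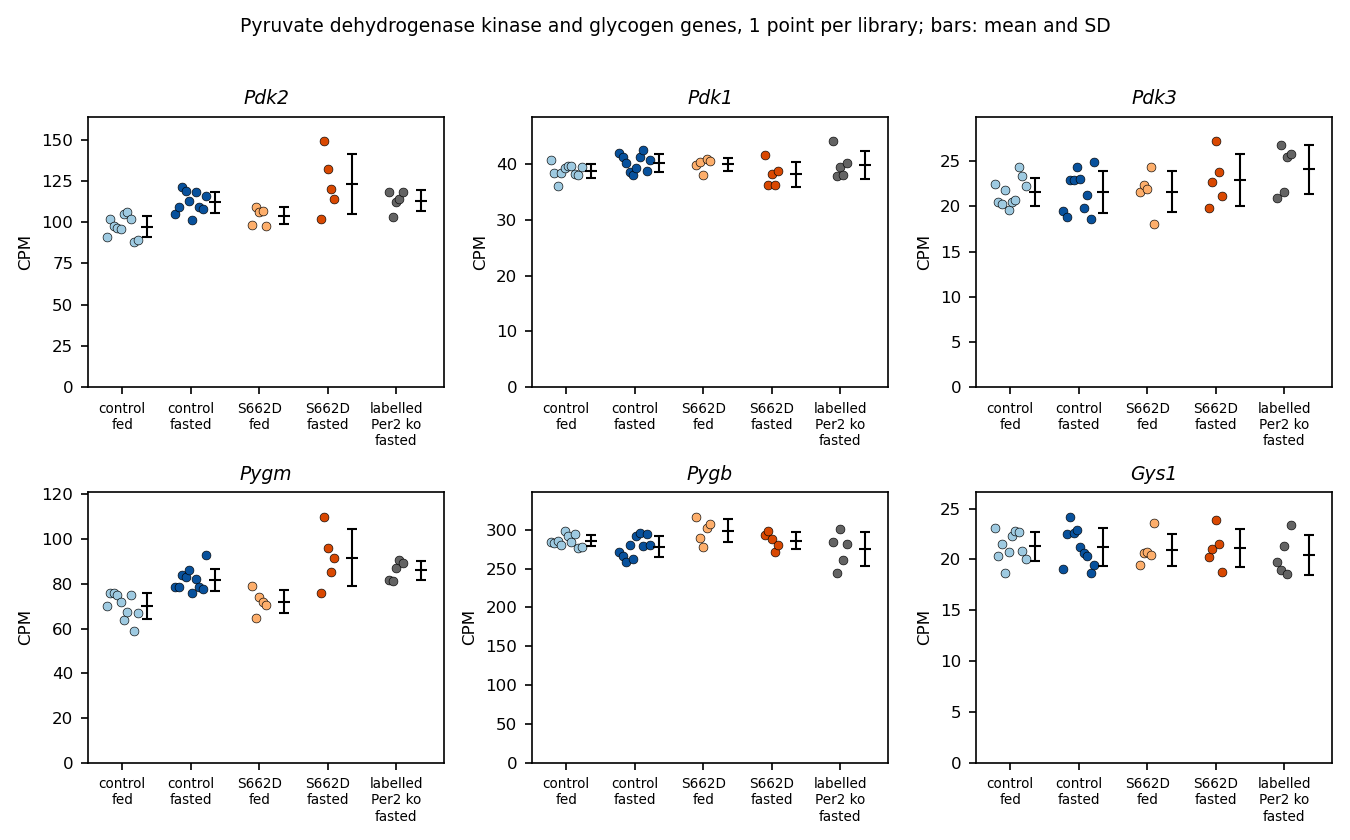
CPM of Pdk2, Pygm and 4 related genes in each library (points) with the mean and SD of each group (bars), n = 10 for each control group and 5 for each other group. Pdk2 and Pygm stand higher in fasted than in fed groups, with medians of 111 against 97.1 and 80.5 against 70.9 CPM in controls, while Pdk1, Pdk3, Pygb and Gys1 show group means within the spread of the libraries.

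The promoters of Pdk2 and Pygm are shown because they belong to the members that rose on fasting in both genotypes. RefSeq windows of 300 bases on GRCm38.p6, 250 before the start site and 50 after it, were found for 33 of the 36 members. Capitals mark ACGTG, the core of a hypoxia-response element, on either strand; CACGTG, the E-box that clock proteins bind, holds that core on both strands. Each window is written 5′ to 3′ on the gene's own strand, chr11:95041322-95041621 (minus) for Pdk2 and chr19:6384158-6384457 (plus) for Pygm.
Pdk2: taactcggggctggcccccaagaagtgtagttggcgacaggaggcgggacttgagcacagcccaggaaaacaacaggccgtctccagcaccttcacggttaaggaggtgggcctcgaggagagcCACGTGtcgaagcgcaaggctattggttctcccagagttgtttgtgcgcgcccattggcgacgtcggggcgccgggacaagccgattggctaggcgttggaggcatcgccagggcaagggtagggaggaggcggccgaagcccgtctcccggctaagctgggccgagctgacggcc
Pygm: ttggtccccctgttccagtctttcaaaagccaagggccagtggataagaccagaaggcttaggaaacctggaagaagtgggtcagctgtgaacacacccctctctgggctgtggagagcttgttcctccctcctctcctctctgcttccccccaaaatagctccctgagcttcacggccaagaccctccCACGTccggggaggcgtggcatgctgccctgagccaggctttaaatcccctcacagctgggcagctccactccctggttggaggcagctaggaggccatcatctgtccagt

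The Pdk2 window holds an E-box that begins 126 bases before the start site. The Pygm window holds no E-box and a single reverse-strand ACGTG core that begins 61 bases before the start site. Among the 52 windows of the 33 members, 5 held an E-box (9.62%) beside 7.15% of all 32851 windows of the table. The members with an E-box window were Pfkfb2, Pfkfb3, Ldha, Pdk2 and Pfkm. Only 1 window of each held it: 1 of 2 for Pfkfb3, Ldha and Pdk2, 1 of 3 for Pfkfb2 and 1 of 4 for Pfkm. ACGTG occurred in 21 of the 52 windows (40.4%) beside 19.6% of all windows. The consensus palindrome of the glucocorticoid receptor and the D-box TTATGTAA were in 0 of the 52, beside 0.00913% and 0.938% of all windows. These are matches of letters, not measured binding.

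The other 7 of the 8 members of pyruvate entry and oxidation did not pass the test on fasting. Pdk1 changed by 0.05 on the log2 scale in controls (95% interval -0.01 to 0.12) and by -0.06 in S662D mice (-0.16 to 0.03). Pdk3, which encodes another of these kinases, gave -0.00 (-0.12 to 0.12) and 0.08 (-0.09 to 0.25). The phosphatase gene Pdp1 gave 0.05 (-0.05 to 0.16) and 0.10 (-0.05 to 0.25). Pdha1, the catalytic alpha subunit of pyruvate dehydrogenase, was among the steadiest members, at 154 ± 4.39 CPM (n = 10) fed and 157 ± 4.85 (n = 10) fasted in controls, a log2 change of 0.02 (-0.03 to 0.08). Within a library, the log2 ratio of Pdk2 to Pdp1 per kilobase averaged -0.68 ± 0.16 (SD, n = 10) in fed and -0.53 ± 0.13 (n = 10) in fasted controls, and -0.60 ± 0.14 (n = 5) and -0.48 ± 0.14 (n = 5) in S662D mice; these ratios overlapped and were not tested.

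Over all libraries the other glycogen genes stayed within narrow intervals. Pygb gave -0.04 on the log2 scale (95% interval -0.10 to 0.03) in fasted against fed controls and -0.06 (-0.15 to 0.03) in S662D mice. Gys1 gave -0.01 (-0.12 to 0.09) and 0.01 (-0.14 to 0.15), and Gbe1 gave -0.00 (-0.11 to 0.10) and -0.01 (-0.16 to 0.13). Pygm therefore held a larger share of glycogen phosphorylase after the fast: 25.9% ± 1.53 (SD, n = 10) in fed and 29.5% ± 1.82 (n = 10) in fasted controls, 25.6% ± 1.26 (n = 5) in fed and 31.3% ± 2.74 (n = 5) in fasted S662D mice, and 30.9% ± 1.68 (n = 5) in the libraries labelled Per2 knockout. The shares are per kilobase and were not tested. The control sets differed in the log2 ratio of Gys1 to Pygb per kilobase within a library. It averaged -3.78 fed and -3.59 fasted in controls 1 to 5, and -3.71 and -3.84 in controls 6 to 10. This ratio was not tested either.

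Among the lactate genes, Slc16a3 had the largest log2 change on fasting in controls but did not pass the test. Its level was 2.43 to 3.55 CPM with a median of 2.78 in fed controls and 2.05 to 4.71 with a median of 3.72 in fasted ones. It differed by 0.31 on the log2 scale (SE 0.11, adjusted p = 0.118, edgeR), and it was called in 1 alternative, without fasted control replicate 5, the lowest library. In S662D mice Slc16a3 held 2.68, 3.18, 3.37, 3.83 and 2.79 CPM fed and 3.73, 4.37, 3.52, 3.83 and 3.44 fasted, overlapping groups with a log2 change of 0.24 (SE 0.15, adjusted p = 0.477, edgeR). Slc16a7, which encodes MCT2, the transporter by which neurons take up lactate, gave -0.12 (95% interval -0.27 to 0.03) in controls and -0.14 (-0.34 to 0.07) in S662D mice.

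Upstream, Pfkp came nearest to the threshold on fasting in controls. This platelet form of phosphofructokinase ran from 185 to 215 CPM fed (median 199) and from 205 to 218 fasted (median 212), a log2 change of 0.09 (SE 0.03, adjusted p = 0.064, edgeR). Pfkfb4 moved the other way, by -0.14 in controls (SE 0.06, adjusted p = 0.257, edgeR) and -0.21 in S662D mice (SE 0.08, adjusted p = 0.186, edgeR). In S662D mice the Pfkfb4 groups met without overlap, at 15.1, 14.7, 15.2, 14 and 15.6 CPM fed and 14, 13.3, 12.4, 13 and 11.7 fasted. The glucose transporter Slc2a3, the neuronal GLUT3, gave 0.06 in controls (95% interval -0.01 to 0.12), and Hk1 gave 0.03 (-0.03 to 0.10). Slc2a8, which encodes the intracellular transporter GLUT8, gave 0.07 in controls (-0.02 to 0.15) and 0.16 in S662D mice (SE 0.06, adjusted p = 0.156, edgeR), where 22.4, 23.3, 23, 22.3 and 24.4 CPM fed and 27.1, 28.1, 23.5, 24.3 and 25.8 CPM fasted overlapped. Gpi1, the isomerase between the hexose phosphates, gave 0.02 in controls (-0.04 to 0.09), Pfkl -0.02 (-0.10 to 0.07), Pfkm 0.02 (-0.04 to 0.09), Pfkfb2 0.10 (-0.01 to 0.20) and Pfkfb3 0.01 (-0.07 to 0.10). In S662D mice Pfkm gave 0.10 (0.01 to 0.20), and 0 of these genes passed the test.

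The 8 lower-glycolysis members all had positive log2 changes in fasted S662D mice, between 0.07 and 0.11, with 0 called. In controls they ran from -0.02 to 0.03, with 4 of 8 positive. Of all genes, 50% were positive in S662D mice and 51.1% in controls. The control sets moved apart: Pkm went from 1485 to 1353 mean CPM on fasting in controls 1 to 5. In controls 6 to 10 it went from 1382 to 1503, and the fasted mean of each of the 8 was higher. In S662D libraries without the additional digit, Eno1 went from 910 to 875 CPM and Tpi1 from 547 to 545, and the rest were higher when fasted. Gapdh, the most abundant, ran from 1972 to 2193 CPM (median 2079) in fed and 1992 to 2246 (median 2120) in fasted controls, and its S662D medians were 1953 fed and 2087 fasted, a log2 change of 0.11 (SE 0.04, adjusted p = 0.185, edgeR). Of the pyruvate members, Pdhb, the beta subunit of the dehydrogenase, gave 0.02 in controls (95% interval -0.05 to 0.09) and 0.08 in S662D mice (-0.02 to 0.18). The test of the difference between the fasting responses called 0 of the 36 members and 0.00% of all genes. The lowest adjusted p among members was 0.771, with 2 members at an unadjusted p below 0.05 (Ldhb and Mpc2) against 6.37% of all genes; DESeq2 also called 0 members. Ldhb held 526, 467, 465, 437 and 522 CPM in fed and 578, 608, 536, 513 and 518 CPM in fasted S662D libraries, against 449 to 570 (median 525) and 469 to 585 (median 527) in fed and fasted controls, and its responses differed by 0.17 (95% interval 0.03 to 0.31). Mpc2, a subunit of the pyruvate carrier, held 64.6, 57.3, 65.8, 56 and 64.5 CPM in fed and 70.5, 73, 64.9, 68.2 and 70.9 CPM in fasted S662D libraries, against 51 to 74 (median 68.1) and 55.2 to 74.9 (median 61.6) in controls, and differed by 0.21 (0.02 to 0.41). Both genes overlapped between feeding states in each genotype. With controls 1 to 5 alone both were called, at 0.30 for Ldhb and 0.41 for Mpc2, and with controls 6 to 10 alone the differences were 0.03 and 0.01. For Pdk2 the difference was 0.05 (-0.11 to 0.21) and for Pygm 0.13 (-0.04 to 0.30). Both intervals include 0.

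**Figure D3:**
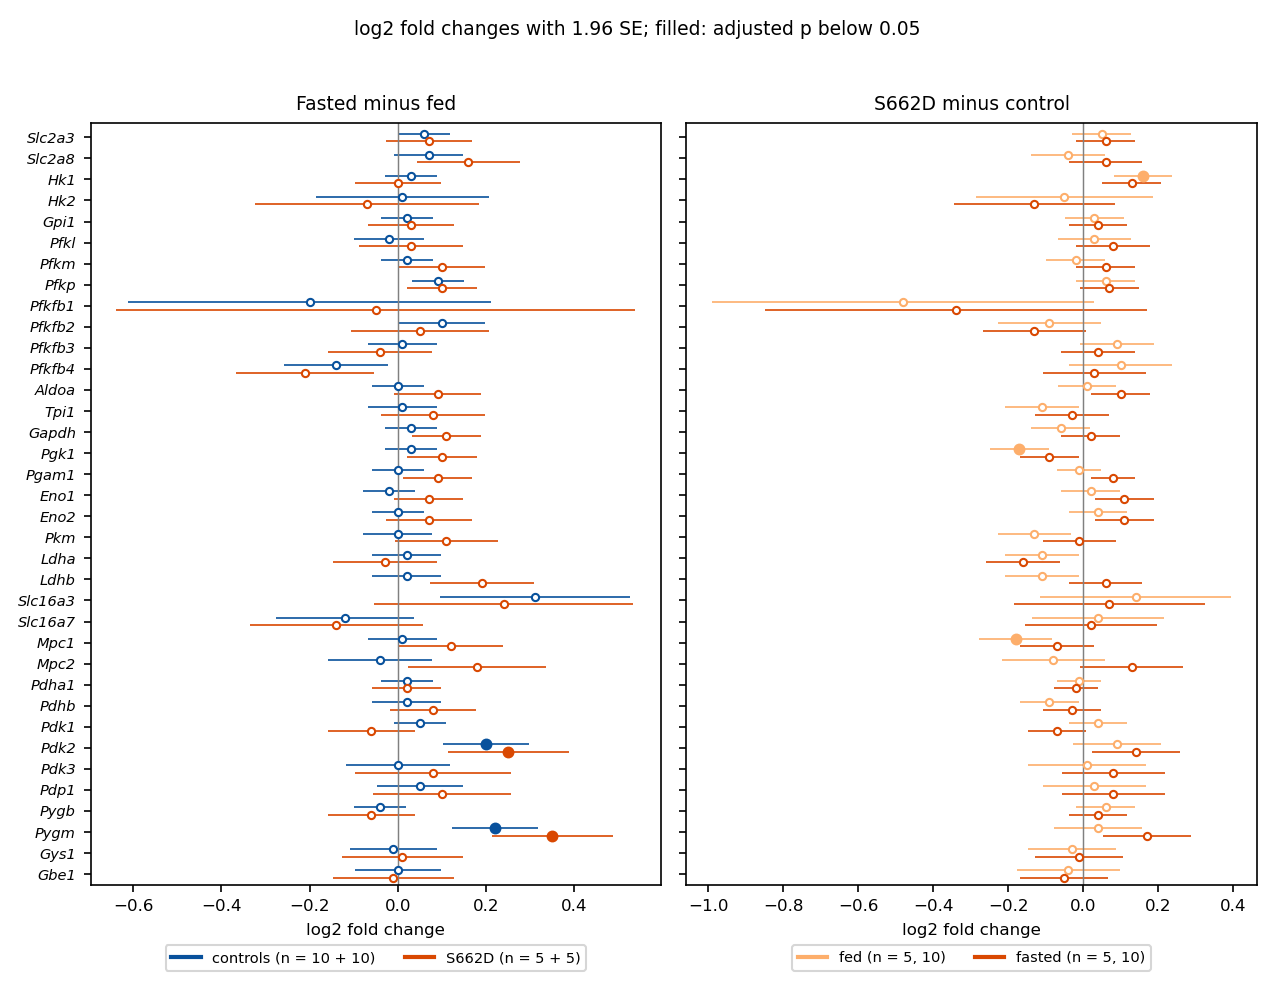
log2 fold changes of the 36 genes with 95% intervals, fasted minus fed (left, controls and S662D mice) and S662D minus control (right, fed and fasted). Filled points have an adjusted p below 0.05. On the left only Pdk2 and Pygm are filled, in both genotypes; on the right Hk1, Pgk1 and Mpc1 are filled, all in the fed state.

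The comparison of fed S662D with fed control mice cannot tell the mutant PER2 from the range of library numbers. It called 3 of 36 members, Hk1 higher and Pgk1 and Mpc1 lower, beside 4.69% of all genes (3.12% higher and 1.57% lower). The members' median log2 change was -0.00 against -0.01 over all genes. The same genes can be followed in the fasted state, where the comparison called 0 of 36 members beside 5.57% of all genes (3.35% higher and 2.23% lower); 9 members (25%) had an unadjusted p below 0.05 beside 20.8% of all genes, and DESeq2 called 3, Hk1, Eno1 and Ldha, beside 1234 of 18063 genes. Pygm, higher on fasting in both genotypes, was 0.17 higher on the log2 scale in fasted S662D than in fasted control mice without passing the test (SE 0.06, adjusted p = 0.0957, edgeR). The calls differed by feeding state, but a difference between states was not shown, since the interaction called 0 members and 0.00% of all genes. An uncalled interaction does not show that the states are alike.

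Hk1 (chromosome 10, 62268855 to 62379908, minus strand) is the main hexokinase of brain. Fed S662D libraries held 311, 313, 316, 326 and 296 CPM, and fed controls 256 to 297 with a median of 281. A single S662D library reached down to the highest control, and the other 4 lay above it. The log2 fold change was 0.16 (SE 0.04, adjusted p = 0.0174, edgeR), and in fasted mice, at 299, 341, 316, 297 and 306 CPM against 266 to 308 (median 281), it was 0.13 (SE 0.04, adjusted p = 0.053, edgeR). The fed call of Hk1 held in 21 of 26 alternatives, between 0.12 and 0.22. It was lost against controls 6 to 10 alone (0.12, adjusted p = 0.3037), when only the S662D libraries lacking the digit were used (0.12, adjusted p = 0.9996), and without fed S662D replicates 2, 3 or 4.

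Pgk1 (chromosome X, 106187100 to 106203699, plus strand), the phosphoglycerate kinase that makes the first ATP of glycolysis, was lower. Fed S662D libraries held 437, 392, 408, 374 and 437 CPM and fed controls 420 to 496 with a median of 465. The log2 fold change was -0.17 (SE 0.04, adjusted p = 0.00944, edgeR). The 3 libraries with the additional digit, at a mean of 391 CPM, were the low ones, below all controls, and the 2 without it, at 437, lay inside the control range. By set, Pgk1 fell by 0.23 with the digit and gave -0.07 without it (adjusted p = 0.9996), and against controls 6 to 10 alone it gave -0.12 (adjusted p = 0.2822). The call held in 22 of 26 alternatives and was lost without fed S662D replicates 2 or 4. As 53.9% of the words of Pgk1 recur in transcripts of 5 other genes, its counts may include reads of these.

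Mpc1 (chromosome 17, 8282904 to 8297661, plus strand), the other subunit of the pyruvate carrier, held 55.4, 48.9, 49.3, 45.2 and 53.4 CPM in fed S662D libraries and 53.7 to 61.4 in fed controls, with a median of 56.3. The low libraries were again the 3 with the digit, at a mean of 47.8 CPM against 54.4 for the 2 without it. The log2 fold change was -0.18 (SE 0.05, adjusted p = 0.0326, edgeR), called in 16 of 26 alternatives, with -0.26 in the libraries with the digit and -0.07 without it (adjusted p = 0.9996). Controls 6 to 10 alone gave -0.14 (adjusted p = 0.3642). The call was also lost without fed S662D replicates 2, 3 or 4, without fed control replicates 3, 4, 5 or 6, and without the low-count filter (adjusted p = 0.0711). Of the exon bases of Mpc1, 23.1% overlap 4930506C21Rik, and the counting used no strand, so the reads of these genes cannot be told apart.

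**Figure D4:**
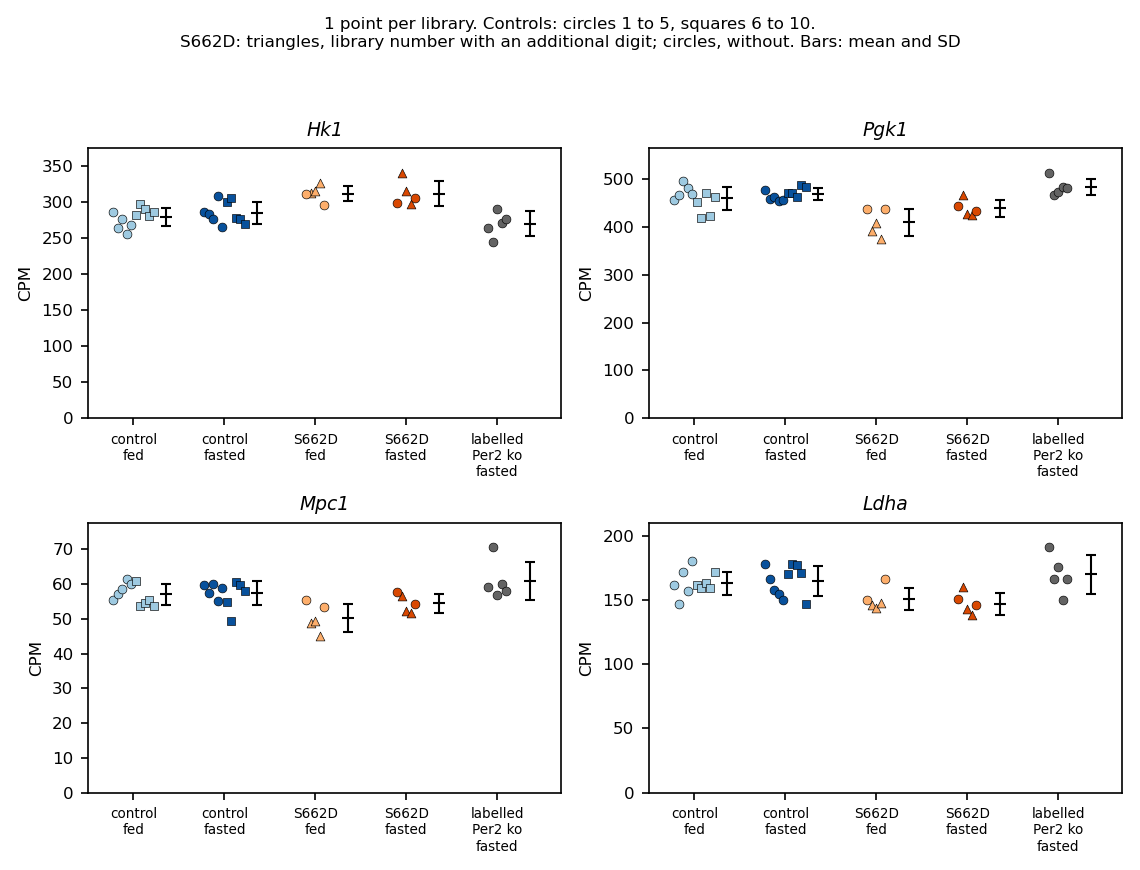
CPM of Hk1, Pgk1, Mpc1 and Ldha in each library with the mean and SD of each group. Circles and squares mark controls 1 to 5 and 6 to 10, and triangles mark S662D libraries with the additional digit. The fed S662D triangles of Pgk1 lie at 374 to 408 CPM and those of Mpc1 at 45.2 to 49.3 CPM, below the S662D circles at 437 and at 53.4 to 55.4 CPM.

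Markers of other cells differed in the same comparisons. Endothelial markers summed to 191 to 217 CPM in fed S662D and 185 to 212 CPM in fed control libraries, with 3 of 5 called (Cldn5 and Flt1 higher, Ly6c1 lower), and to 175 to 230 against 168 to 193 CPM in the fasted state, with Cldn5, Flt1 and Pecam1 higher. The neuronal marker Syn1 was higher in both states, as 1 of 5 neuronal markers. No marker of these lists was at 0 in any group, and their part in the differences of Hk1, Pgk1 and Mpc1 was not tested.

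Ldha (chromosome 7, 46841475 to 46855627, plus strand), the lactate dehydrogenase subunit linked to lactate production, lay just outside the threshold in fasted S662D mice. They held 151, 160, 143, 138 and 146 CPM against 147 to 178 in fasted controls, with a median of 168. The groups overlapped, and the log2 fold change was -0.16 (SE 0.05, adjusted p = 0.0506, edgeR; DESeq2 gave an adjusted p of 0.0348). In the fed state the change was -0.11 (SE 0.05, adjusted p = 0.186, edgeR). Over the 26 alternatives of the fasted comparison Ldha ran from -0.20 to -0.13 and was called in 7.

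Set against its partner within each library, Ldha was lowest in the fasted S662D group. The log2 ratio of Ldha to Ldhb per kilobase was -2.97 ± 0.04 (SD, n = 5) there, -2.76 ± 0.09 in fed S662D mice, -2.75 ± 0.12 (n = 10) in fed and -2.76 ± 0.11 (n = 10) in fasted controls, and -2.75 ± 0.10 (n = 5) in the labelled knockout. The 5 fasted S662D libraries lay between -3.01 and -2.91, below every fed S662D library (lowest -2.89), while fasted controls reached down to -3.02. The ratio needs no scaling of libraries. In fasted S662D mice it was similar with and without the additional digit, at -2.99 (n = 3) and -2.96 (n = 2). In fed S662D mice the ratio was -2.72 with the digit and -2.81 without it. It was chosen with the values of these genes known and is a description. Ldhb is among the uncertain members.

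Of the 2 Ldha promoter windows, the 1 that holds E-boxes is shown, in the same notation as above, at chr7:46845554-46845853 (plus strand, GRCm38.p6).
Ldha: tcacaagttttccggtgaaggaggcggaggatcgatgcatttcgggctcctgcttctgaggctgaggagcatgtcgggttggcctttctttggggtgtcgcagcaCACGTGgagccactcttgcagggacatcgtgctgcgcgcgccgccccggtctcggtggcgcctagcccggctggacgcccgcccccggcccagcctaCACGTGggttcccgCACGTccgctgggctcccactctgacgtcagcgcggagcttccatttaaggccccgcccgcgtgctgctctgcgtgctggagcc

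The window holds 2 E-boxes, which begin 145 and 48 bases before the start site, and a further reverse-strand core 34 bases before it. The RefSeq start shown is the nearest to the 5′ end of the gene in the count tables and lies downstream of it.

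Against fasted controls, the libraries labelled Per2 knockout differed in 0 of 36 members, beside 0.0277% of all genes called (0.00554% higher and 0.0221% lower). At an unadjusted p below 0.05 there was 1 member, Pdk3 (2.78%), beside 6.07% of all genes, and DESeq2 called 0 members and 7 genes. Pdk3 held 20.9, 26.8, 21.6, 25.4 and 25.8 CPM in the labelled knockout and 18.6 to 24.9 (median 22.1) in fasted controls, overlapping groups with a log2 change of 0.16 (95% interval 0.01 to 0.31, adjusted p = 0.817, edgeR). The next largest changes were Slc16a7 at 0.10 (-0.08 to 0.28) and Mpc1 at 0.09 (-0.01 to 0.18). For Pdk2 the interval was -0.10 to 0.13 and for Pygm -0.04 to 0.19, so changes larger than these fall outside the 95% intervals.

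Against fasted S662D mice, the labelled knockout differed in 3 of 36 members, Hk1 lower and Ldha and Pgk1 higher, beside 7.34% of all genes called (2.61% higher and 4.72% lower). Hk1 held 264, 245, 291, 271 and 277 CPM against 299, 341, 316, 297 and 306, groups without overlap, a log2 change of -0.21 (SE 0.05, adjusted p = 0.00547, edgeR). Pgk1 held 514, 468, 474, 483 and 482 CPM against 444, 467, 427, 425 and 433, again without overlap though by a narrow gap, a log2 change of 0.14 (SE 0.04, adjusted p = 0.0421, edgeR). Ldha held 191, 166, 176, 150 and 166 CPM against 151, 160, 143, 138 and 146, overlapping groups with a log2 change of 0.20 (SE 0.06, adjusted p = 0.0283, edgeR). The direction of each gene is that of S662D mice against controls turned round, and both comparisons use the same fasted S662D libraries. Eno2 was near the threshold, at 823, 757, 819, 798 and 804 CPM against 872, 960, 872, 846 and 858, groups without overlap, with a log2 change of -0.14 (SE 0.05, adjusted p = 0.0548, edgeR). Hk1 was called in 16 of 19 alternatives, Ldha in 10 and Pgk1 in 8. Hk1 lost its call in the S662D libraries lacking the digit, in a fit of the compared groups alone and with the replicate block; Ldha and Pgk1 lost theirs there too. Without labelled knockout replicate 1, the highest library of both, Ldha gave 0.16 (adjusted p = 0.109) and Pgk1 0.12 (adjusted p = 0.117). Of the endothelial markers, Cldn5, Flt1 and Pecam1 were lower in the labelled knockout, with sums of 165 to 182 against 175 to 230 CPM, as was the neuronal Syn1. Of 10 hypothalamic markers, 3 were higher in the labelled knockout, Pmch, Hcrt and Npy, with sums of 598 to 769 against 538 to 741 CPM and a median log2 change of 0.23 over the list. For all these markers, their part in these differences was not tested.

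**Figure D5:**
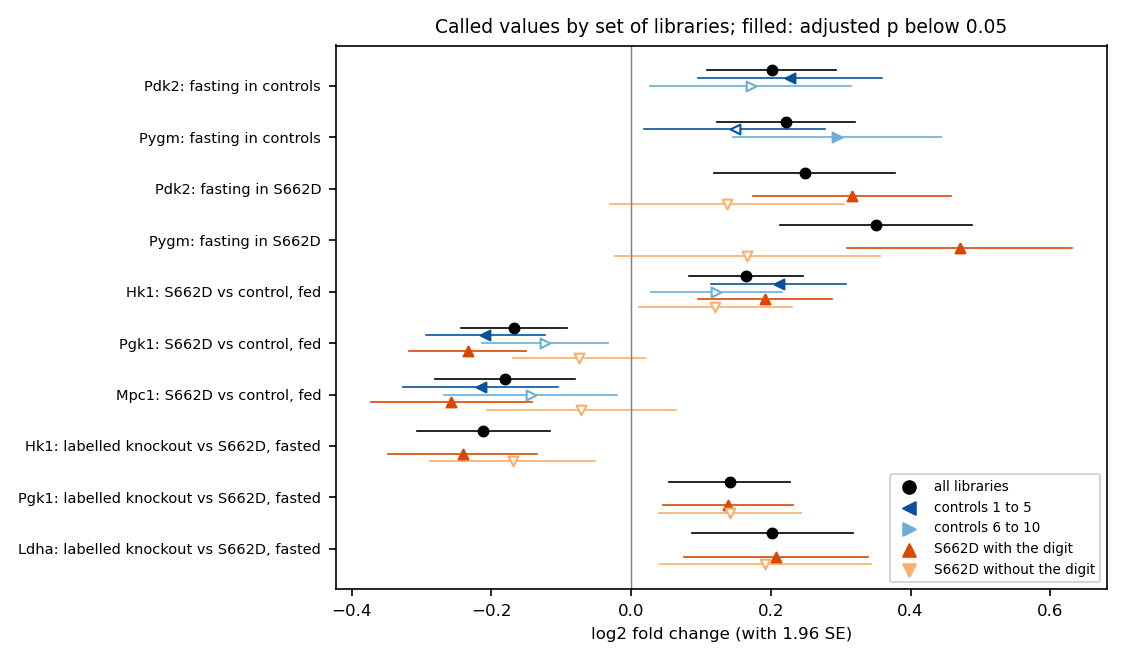
log2 fold changes with 95% intervals for the 10 called pairs of gene and comparison, in all libraries and in each set of libraries alone; filled points have an adjusted p below 0.05. Every value keeps its sign. The fasting changes of Pdk2 and Pygm in S662D mice and the fed genotype changes of Pgk1 and Mpc1 are larger in libraries with the additional digit, at 0.32, 0.47, -0.23 and -0.26, than in those without it, at 0.14, 0.17, -0.07 and -0.07.

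Pfkfb1, the liver form of its family, had the largest log2 changes in several comparisons and the widest errors, as its groups averaged below 1 CPM. Fed controls ran from 0.396 to 1.17 CPM with a median of 0.887, and fed S662D libraries held 0.911, 0.486, 0.552, 0.394 and 0.711, a log2 change of -0.48 (SE 0.26, adjusted p = 0.291, edgeR). In the fasted state the change of Pfkfb1 was -0.34 (95% interval -0.85 to 0.17), and between the labelled knockout and S662D mice it was 0.32 (-0.27 to 0.91). Hk2, the inducible hexokinase, was also low, at 4.32 ± 0.542 CPM (n = 10) in fed and 4.36 ± 0.534 (n = 10) in fasted controls, a log2 change of 0.01 (-0.18 to 0.20). Over the 36 genes and 5 groups the coefficient of variation between libraries ran from 1.73% (Pfkp in fasted controls) to 33.4% (Pfkfb1 in fed S662D mice).

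Other genes of the same pathways, a list of 60 of which 51 were tested, held some of the larger fasting changes. Of all genes, fasting called 3.88% in controls and 2.64% in S662D mice. Fasting in controls called 4: Pdk4, the fasting-induced pyruvate dehydrogenase kinase of muscle and liver, at 9.52 ± 0.875 CPM (n = 10) fed and 21.1 ± 5.47 (n = 10) fasted, a log2 change of 1.15 (SE 0.12, adjusted p = 1.22e-07, edgeR); Slc2a1, the GLUT1 transporter of the blood-brain barrier and glia, at 0.58; Pgm2 at 0.16; and Ugp2, which makes the glucose donor for glycogen, at -0.16. In S662D mice 4 rose: Pdk4 by 1.11, Slc2a1 by 0.81, Aldoc, the astrocytic aldolase, by 0.24 and Pgm2 by 0.21. Pdk4 thus went from 5.79% ± 0.535 to 10.9% ± 2.4 of the kinases' summed level per kilobase in controls, and Pdk2 remained the most abundant, at 64.3% ± 2.42 in fasted controls. The interaction called 0 of the 51. Against controls, 2 of the 51 were called in fed S662D mice, beside 4.69% of all genes. Slc2a13 (0.23) and Gaa (0.22), the lysosomal glucosidase of glycogen, were higher. In fasted S662D mice 2 were called, Ldhd (-0.21) and Hif1a (-0.17), both lower, beside 5.57% of all genes. The labelled knockout called 0 against controls, beside 0.0277% of all genes. Against S662D mice it called 2, beside 7.34% of all genes: Slc16a1, the MCT1 transporter, gave -0.26, and Pklr gave 1.60 at levels below 1 CPM. The calls of these other genes were not followed over the sets of libraries.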

How the data were processed

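Hypothalamic polyA RNA was measured in 35 libraries of 5 groups. Reads were aligned with STAR 2.7.10b to mm10, per the submitters' processing notes, and the authors' deposited values are raw counts per gene name, made with featureCounts 2.0.1 on GENCODE annotation, per the file headers. The headers give options that count read pairs and every alignment of a multi-mapping read, and no strand option. Lines without a gene name numbered 0.

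Genes with too few counts were removed (edgeR filterByExpr, minimum count 10), which left 18063. Counts were scaled by TMM (factors 0.964 to 1.02) and tested with edgeR 4.0.16 in R 4.3.3 by the robust quasi-likelihood test, with 1 mean per group fitted over all 35 libraries (biological coefficient of variation 0.09). P-values were adjusted by Benjamini-Hochberg over all 18063 genes and called below 0.05. Standard errors are the fold change over the root of F, and 95% intervals use the normal multiplier of these errors. The script was tested on simulated data. DESeq2 1.42.0, other scalings and filters, a replicate block, each library left out in turn and each set of libraries alone were alternatives. No pair of libraries was identical.

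Replicate numbers were not used to pair libraries. Between fed and fasted controls the same-numbered libraries correlated at -0.191 to 0.0587, with 0 of 10 pairs above 0.1.

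Members chosen for description were those called in any of the 7 comparisons and the 3 with the largest absolute log2 fold change in each. Their values are given as CPM or as log2 changes, and not for every group. From each role, 1 or more members were described by level. The members and all gene lists were chosen with earlier results of these data known. Depth was 17959586 to 37027342 counts, which limits precision for genes near 1 CPM, such as Pfkfb1 at 10 to 18 reads per fed S662D library. A result on cell type markers in fed mice is not reported here.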

Additional observations from a re-analysis of the deposited data

Results flagged for a closer look

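Among 12 genes in the 5 groups, 60 sets of values were searched for a single library far from the others of its group, and 5 were found where chance gives about 3 (1 in 20). Ldha stood at 166 CPM in fed S662D replicate 5, where the next highest library held 150. Mpc1 was lowest in fasted control replicate 7, at 49.5 CPM against 54.9 for the next, and highest in labelled knockout replicate 2, at 70.6 CPM against 60.1. Pfkfb1 was lowest in labelled knockout replicate 3, at 0.326 CPM against 0.751. Slc16a3 was highest in labelled knockout replicate 1, at 4.4 CPM against 3.45.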

How the results depend on the processing

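The count of members called depended most on which libraries entered. Fasting in controls called 2, but 1 in controls 6 to 10 alone and 3 by DESeq2. It called 3 in a fit of the compared groups only, and 2 to 3 with a library left out. Controls 1 to 5 alone called 2, with Mpc2, lower, in place of Pygm. Over all genes, fasting in controls called 701 of 18063, 304 of 17812 in controls 6 to 10 and 1315 of 17775 in controls 1 to 5. DESeq2 called 820 of 18063 genes, and the compared groups only 775 of 16909. Fasting in S662D mice called 2, but 0 in the libraries without the additional digit and 4 with it. It called 1 with no scaling beyond library size, 1 in a fit of the compared groups only, and 1 to 2 with a library left out. Over all genes it called 476 of 18063, 7 of 18746 without the digit and 683 of 18421 with it. No scaling gave 590 of 18063 genes, and the compared groups only 279 of 17479. The interaction called 0, beside 0 of 18063 genes, and 2 with controls 1 to 5 alone, beside 486 of 17775 genes. S662D against control in fed mice called 3, but 6 with controls 1 to 5 alone, 0 with controls 6 to 10 alone, 0 without the digit, 7 with it, and 0 to 4 with a library left out (0 without fed S662D replicate 2 or 4, 1 without replicate 3). The count over all genes moved with it: 847 of 18063, then 1741 of 17775, 33 of 17812, 16 of 18746 and 3106 of 18421 in those 4 sets of libraries. In fasted mice S662D against control called 0, but 1 with RLE scaling, 2 with no scaling and 2 with a filter at 1 CPM. It called 3 with controls 1 to 5 alone, 6 with the digit and 3 by DESeq2. With a library left out it called 0 to 5 (5 without fasted S662D replicate 1). Over all genes it called 1007 of 18063, 1034 with RLE scaling, 1022 with no scaling and 1234 by DESeq2. The filter at 1 CPM gave 1071 of 15477 genes, controls 1 to 5 alone 1680 of 17775, and the digit 3148 of 18421. Without fasted S662D replicate 1 it was 1802 of 18213 genes. The labelled knockout against S662D mice called 3, but 1 without the low-count filter, 0 without the digit and 8 with it. It called 0 in a fit of the compared groups only, and 1 to 3 with a library left out. Over all genes it called 1325 of 18063, and 907 of 36082 without the low-count filter. Without the digit it was 26 of 18746 genes, with it 2986 of 18421, and in the compared groups only 476 of 17218. Against controls the labelled knockout called 0 in all 24 alternatives.

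The fits with a replicate block hold only the compared groups and, across genotypes, only the numbers both groups have. In them, fasting in S662D mice called 1 member, S662D against control 6 fed and 1 fasted, and the labelled knockout against S662D mice 0. Over all genes these fits called 381 of 17479, 2333 of 16919, 1338 of 17101 and 227 of 17218, in that order. The replicate numbers are not documented as pairs, and the smaller set of libraries moves the member counts too. Controls 1 to 5 alone also gave 6 in fed mice, and the compared groups only also gave 0 for the labelled knockout against S662D mice. Fed and fasted S662D libraries had 2 of 5 same-numbered pairs correlated above 0.1, and fed S662D and control libraries 3 of 5 (highest r 0.236); in each, 1 library correlated best with its own number.

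The interaction of Pfkfb1, 0.15, turned to -0.26 with controls 6 to 10 alone, to -0.06 without the digit, and ran from -0.00 to 0.33 with a library left out. With no scaling, all genes called higher and lower went from 326 and 150 to 262 and 328 for fasting in S662D mice, from 605 and 402 to 259 and 763 for S662D against control in fasted mice, and from 472 and 853 to 636 and 633 for the labelled knockout against S662D mice. The cause of these changes was not tested.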
